A study of Mus musculus with 19 samples.

Results

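The genes described here are 10 genes of bacterial lipopolysaccharide sensing and of the acute-phase response: Cd14, Lbp, Tlr2, Tlr4, Ly96, Myd88, Lcn2, Ltf, Il1b and Stat3. Each was read from the probe set that carries its symbol and no other, with the brightest probe set kept where a gene had several. All 10 had exactly 1 such probe set, out of 22180 genes with a single symbol on the array. All 10 also lay at or above the intensity filter (4.38 on the log2 scale, the median of the table) on all 19 arrays, and so were among the 14231 genes tested. Cd14 entered the set because it was higher in the tumours labelled double knockout. Its values in those tumours, and those of the genes grouped with it, are therefore given as a description, with no p-value for any single gene. Counts of these genes that passed a p threshold there are given beside the share of all genes, and nothing is read from them.

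The tumours were end-burden mammary tumours of MMTV-NIC mice. Their transgene expresses activated ErbB2 (Neu) and Cre recombinase under the MMTV promoter, in the mammary epithelium. Every group carried this transgene. The 5 control tumours were NIC WT. The 4 Itgb1 knockout tumours were NIC itgb1 fl/fl, the 4 Itgb3 knockout tumours NIC itgb3 fl/fl, and the 6 tumours labelled double knockout NIC itgb1 fl/fl itgb3 fl/fl (floxed alleles of the genes for the beta 1 integrin, the beta 3 integrin or both). The MMTV promoter directs Cre to the mammary epithelium. Which cells of a tumour had lost an integrin was not measured in this RNA. Total RNA of whole flash-frozen tumours was hybridised to 19 whole-transcript Affymetrix arrays. No age, batch or scan date was given, and no label says whether the tumours of a group came from separate animals, so the p-values measure only the spread between these arrays.

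Lipopolysaccharide, the outer-membrane glycolipid of gram-negative bacteria, is sensed in steps. In the textbook scheme LBP, a serum protein, carries lipopolysaccharide to CD14, a membrane-anchored co-receptor of macrophages and of some epithelia, and CD14 passes it to TLR4 with its partner MD-2, the product of Ly96. TLR4, like TLR2, the receptor for bacterial lipoproteins, signals through the adaptor MyD88 to NF-kappaB, which induces cytokines such as interleukin 1 beta. STAT3 is the transcription factor of the acute-phase response and of mammary involution, the regression of the gland after weaning, when Cd14, Lcn2 and other acute-phase genes are known to be induced in the epithelium. Lipocalin 2 (Lcn2) binds bacterial siderophores and lactoferrin (Ltf) binds iron in milk.

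The RefSeq promoter table for GRCm38.p6 held 6 of the 10 genes: Tlr2, Myd88, Lcn2, Ltf, Il1b and Stat3. Cd14, Lbp, Tlr4 and Ly96 were not matched. The 250 bases before the start site are shown for 4 of the matched genes. Tlr2 and Myd88 are shown because they were the genes of the set most like Cd14 outside the tumours labelled double knockout. Lcn2 and Ltf are shown because they are the secreted iron-handling proteins whose levels are described together. Capitals mark matches to 1 of 3 motifs on either strand, named after factors of the acute-phase response: the STAT motif TTCNNNGAA, the C/EBP motif TTGCNNAA and the NF-kappaB consensus. The stretches are Tlr2 at chr3:83841609-83841858 (minus strand), Myd88 at chr9:119340019-119340268 (minus strand), Lcn2 at chr2:32387740-32387989 (minus strand) and Ltf at chr9:111019042-111019291 (plus strand), each written 5′ to 3′ on the gene's strand and ending next to the start site.
Tlr2: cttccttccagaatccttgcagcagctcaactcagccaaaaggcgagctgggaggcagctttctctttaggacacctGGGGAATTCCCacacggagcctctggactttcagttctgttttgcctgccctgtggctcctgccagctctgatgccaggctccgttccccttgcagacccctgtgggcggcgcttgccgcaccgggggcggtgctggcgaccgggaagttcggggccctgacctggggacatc
Myd88: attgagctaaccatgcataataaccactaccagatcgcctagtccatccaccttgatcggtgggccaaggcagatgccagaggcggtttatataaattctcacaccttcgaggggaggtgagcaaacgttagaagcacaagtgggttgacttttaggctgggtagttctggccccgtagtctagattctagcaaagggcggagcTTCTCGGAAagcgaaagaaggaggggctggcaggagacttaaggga
Lcn2: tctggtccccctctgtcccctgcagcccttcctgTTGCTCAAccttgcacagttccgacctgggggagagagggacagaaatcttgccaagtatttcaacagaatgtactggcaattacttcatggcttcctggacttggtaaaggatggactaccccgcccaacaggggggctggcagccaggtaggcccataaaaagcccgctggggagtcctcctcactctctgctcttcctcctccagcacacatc
Ltf: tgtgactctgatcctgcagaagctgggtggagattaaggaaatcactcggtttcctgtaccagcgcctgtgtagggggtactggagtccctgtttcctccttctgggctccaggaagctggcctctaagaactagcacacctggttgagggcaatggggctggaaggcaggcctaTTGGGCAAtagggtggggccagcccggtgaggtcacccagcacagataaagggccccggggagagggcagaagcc

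The Tlr2 stretch held overlapping NF-kappaB matches between 173 and 163 bases before the start, on both strands, and 3.9% of all 32851 promoters of this length held at least 1. Myd88 held 1 STAT motif, TTCTCGGAA, between 46 and 38 bases before the start, a motif found in 7.02% of promoters. Lcn2 held the C/EBP motif as TTGCTCAA, 216 to 209 bases before the start. Ltf held it on the other strand, 75 to 68 bases before the start, where the gene strand reads TTGGGCAA. That motif was found in 9.56% of promoters. No match to these 3 motifs was found in the same window of Il1b or Stat3, which says only that these letters are not in that window. Another 6 motif forms were also searched. TTCCNGGAA (0.913% of promoters), a stricter NF-kappaB form (0.356%) and TGANTCA (6.75%) had no match in the 6 genes. GAGGAA (23.3%) matched Lcn2 and Ltf, GGNNNTTCC (15.7%) matched Tlr2, at the NF-kappaB letters, and Stat3, and GAAANNGAAA (2.98%) matched Myd88, where it overlaps the STAT motif. These matches describe letters in the reference sequence. They are not measured binding sites.

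Array medians ran from 4.32 to 4.48 and the median correlation of an array with the others from 0.969 to 0.98. No pair correlated above 0.984, so no array was a duplicate. Epcam, Krt8 and Krt18, markers of mammary epithelium, were at or above the filter on all 19 arrays, and Alb, the liver marker, on 0. Of the targeted genes, Itgb1 fell by 1.46 in the Itgb1 knockout tumours (limma adjusted p = 0.0217, a call kept in 12 of 19 fits that left out 1 array) and differed by −1.84 in the tumours labelled double knockout (limma adjusted p = 0.000156). Itgb3 averaged 7.01 in the Itgb3 knockout tumours against 8.12 in the controls, with all 4 below every control (difference −1.12, limma adjusted p = 0.723). In the tumours labelled double knockout, however, it averaged 8.13, a difference from control of 0.01 ± 0.229 (SE, limma adjusted p = 0.986). That group is therefore called by its label throughout.

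Across the 10 genes, 2 stood apart in the tumours labelled double knockout, namely the co-receptor gene Cd14 and the receptor gene Tlr4, for which all 6 arrays lay above all 13 others. Over all genes tested, 42, or 0.295%, were placed in this way. Against the controls, 8 of the 10 genes had a positive difference, beside 55.9% of all genes tested. The median over the 10 was 0.23, where the median over all genes tested was 0.03. The genes furthest from 0 were Ltf (1.65), Cd14 (1.59), Tlr4 (0.93) and Lbp (−0.62). In the limma fit over all genes (adjusted p under 0.05), 2 of the 10 (Cd14 and Tlr4) were counted in that comparison, beside 0.386% of all genes. The count was 2 beside 2.87% against the Itgb3 knockout tumours, and 0 beside 0.0211% against the Itgb1 knockout tumours, where 3 of the 10 and 12.3% of all genes had an unadjusted p under 0.05. These counts restate how the set was chosen, around a rise in these arrays, and nothing is read from them. The Tlr4 call against control held in 3 of the 19 fits that left out 1 array and in 2 of 8 alternative settings. That of Cd14 held in 19 of 19 and in 7 of 8. The 3 comparisons share the 6 arrays labelled double knockout.

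**Figure D1:**
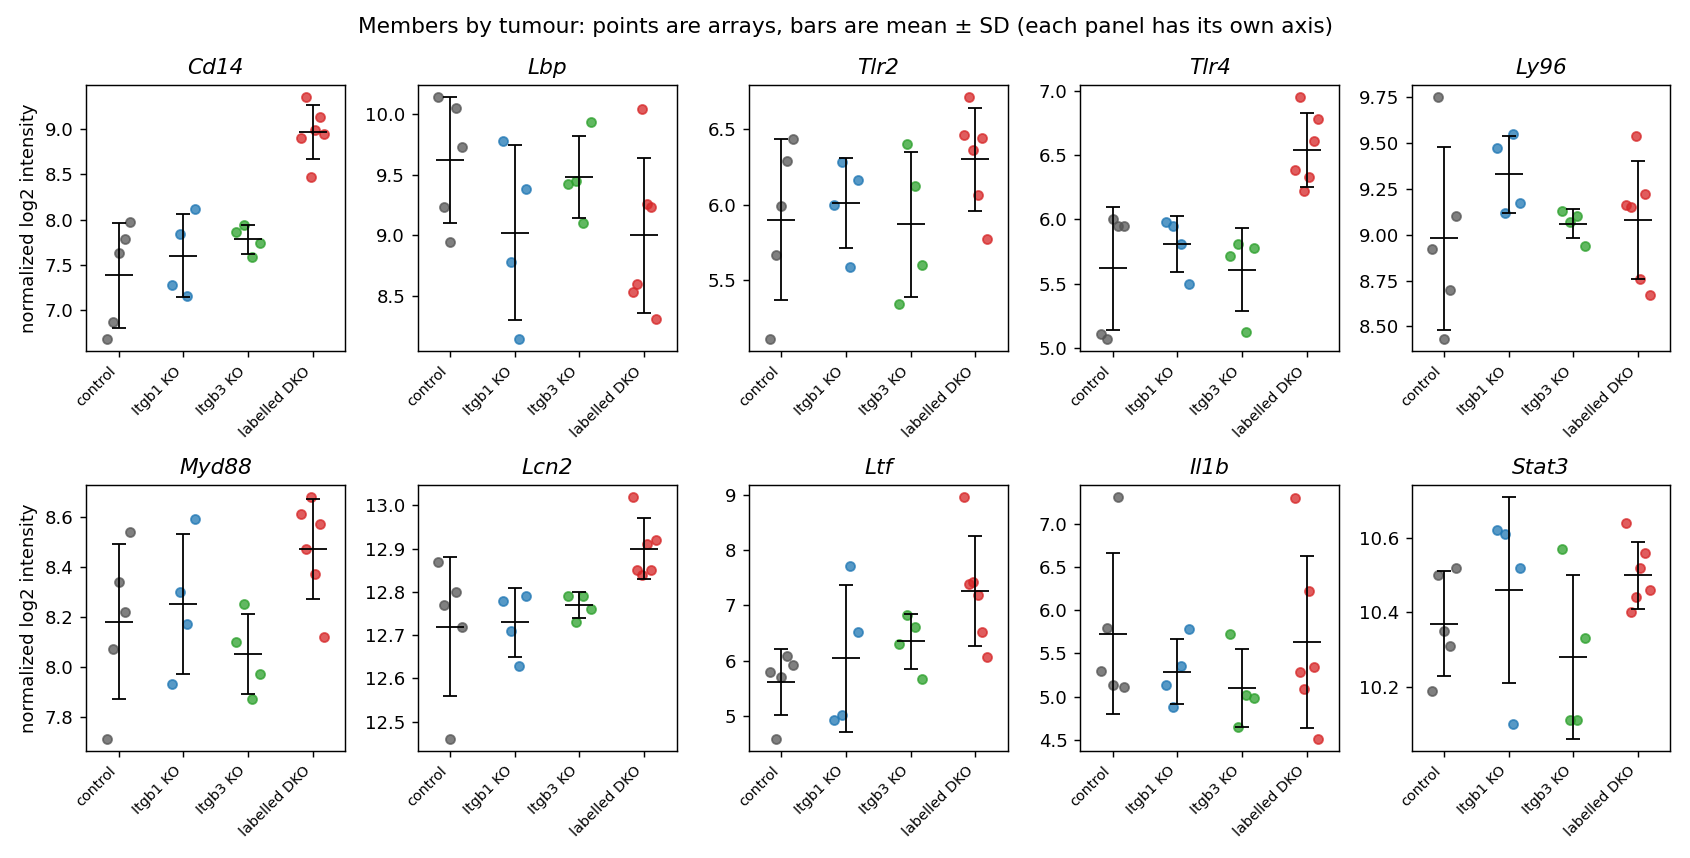
Normalized log2 intensity of the 10 genes on the 19 arrays, grouped by genotype (5 control, 4 Itgb1 knockout, 4 Itgb3 knockout and 6 labelled double knockout), with 1 point per array, and bars for the group mean ± SD; each panel has its own axis, which does not start at 0. Cd14 and Tlr4 are the 2 panels in which all 6 red points lie above every other point. For Lcn2 the red points lie above both single knockout groups but overlap the controls. Lbp, Tlr2, Ly96, Myd88, Ltf, Il1b and Stat3 overlap between all groups.

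Cd14, the lipopolysaccharide co-receptor, read 6.67, 6.86, 7.63, 7.78 and 7.97 on the 5 control arrays. The Itgb1 knockout arrays read 7.27, 7.84, 7.15 and 8.12, and the Itgb3 knockout arrays 7.86, 7.94, 7.58 and 7.74. The 6 arrays labelled double knockout read from 8.47 to 9.36 with a median of 8.97. The lowest of them was thus above the highest of the other 13, which was 8.12. Group means ± SD were 7.38 ± 0.58 (n = 5), 7.60 ± 0.46 (n = 4), 7.78 ± 0.16 (n = 4) and 8.97 ± 0.30 (n = 6). On the log2 scale the labelled double knockout mean exceeded control by 1.59 ± 0.229 (SE), which is 3.01-fold, the Itgb1 knockout mean by 1.37 ± 0.245 and the Itgb3 knockout mean by 1.19 ± 0.245. Among the other 3 groups all ranges overlapped, and the controls spread most, with 2 of the 5 below every knockout array. Leaving out control replicate 1, the lowest, brought the difference from control to 1.41, and leaving out control replicate 5, the highest, brought it to 1.74.

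Tlr4, the signalling receptor, read 5.11, 5.07, 6.0, 5.95 and 5.95 in the controls. The Itgb1 knockout arrays read 5.98, 5.95, 5.81 and 5.50 and the Itgb3 knockout arrays 5.72, 5.81, 5.13 and 5.78. The arrays labelled double knockout ran from 6.22 to 6.95 with a median of 6.50. As for Cd14, the lowest of these, 6.22, lay above the highest other array, 6.0. The means ± SD were 5.62 ± 0.48, 5.81 ± 0.22, 5.61 ± 0.32 and 6.54 ± 0.29. The labelled double knockout mean was higher than control by 0.93 ± 0.197 (1.9-fold), than the Itgb1 knockout by 0.73 ± 0.210 and than the Itgb3 knockout by 0.93 ± 0.210. With 1 array left out, the difference from control ran from 0.79 to 1.02 over 19 fits.

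Control replicates 1 and 2 were the lowest controls for Cd14 and for Tlr4, and replicate 1 also for Tlr2 (5.11) and Myd88 (7.71). Within the 6 arrays labelled double knockout, Cd14 and Tlr4 were both highest in replicate 2, at 9.36 and 6.95, and both lowest in replicate 3, at 8.47 and 6.22. Pearson's r between them over those 6 arrays was 0.80. Over the 13 other arrays it was 0.54, and −0.10 over the 11 that remained without control replicates 1 and 2. These correlations are descriptions over few arrays that share their normalization.

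The remaining genes of the receptor complex did not share this order. Ly96, which encodes MD-2, the lipopolysaccharide-binding partner of TLR4, read 8.92, 9.75, 8.43, 8.70 and 9.10 in the controls, 9.47, 9.12, 9.55 and 9.17 in the Itgb1 knockout tumours, and 9.13, 9.07, 9.10 and 8.94 in the Itgb3 knockout tumours. The tumours labelled double knockout read from 8.67 to 9.54 with a median of 9.15. The highest and the lowest array of all 19 were both controls. The difference of the labelled double knockout from control was 0.10 ± 0.191 (SE), and it turned to −0.03 without control replicate 3.

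Lbp, the serum carrier, had its highest mean in the controls. They read 10.14, 9.23, 8.94, 10.05 and 9.73, against 9.78, 8.78, 8.14 and 9.38 in the Itgb1 knockout tumours and 9.42, 9.45, 9.10 and 9.93 in the Itgb3 knockout tumours. The tumours labelled double knockout ran from 8.31 to 10.04, with a median of 8.92. The difference of the last group from control was −0.62 ± 0.320 (SE), and 3 of its 6 arrays lay below every control. The difference was opposite in sign to that of Cd14. The Itgb1 knockout tumours differed from control by −0.60 ± 0.354, which did not pass the test (limma adjusted p = 0.982) and was −0.31 without Itgb1 knockout replicate 3. All 4 groups overlapped.

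Tlr2, the lipoprotein receptor, read 5.11, 5.67, 5.99, 6.29 and 6.43 in the controls, 6.0, 6.28, 5.59 and 6.16 in the Itgb1 knockout tumours and 5.34, 6.40, 6.12 and 5.60 in the Itgb3 knockout tumours. The tumours labelled double knockout ran from 5.77 to 6.71 around a median of 6.40, and 3 of the 6 exceeded every other array. The difference from control was 0.40 ± 0.237 (SE), and 0.20 without control replicate 1. Myd88, the adaptor below both receptors, read 7.71, 8.07, 8.34, 8.22 and 8.54 in the controls, 7.93, 8.30, 8.17 and 8.59 in the Itgb1 knockout tumours and 8.10, 8.25, 7.87 and 7.97 in the Itgb3 knockout tumours. It ran from 8.12 to 8.68 in the tumours labelled double knockout, with a median of 8.52. The Itgb3 knockout mean was the lowest, and 5 of the 6 arrays labelled double knockout lay above all 4 Itgb3 knockout arrays (difference 0.42 ± 0.156, against 0.29 ± 0.146 from control).

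Ltf, lactoferrin, differed most from control and also varied most. The controls read 5.79, 4.58, 5.70, 6.08 and 5.91. The Itgb1 knockout tumours read 4.93, 5.01, 7.70 and 6.51 and the Itgb3 knockout tumours 6.29, 6.82, 6.61 and 5.67. In the tumours labelled double knockout it ran from 6.07 to 8.96 with a median of 7.29, and 5 of the 6 lay above every control. The means were 5.61 ± 0.59, 6.04 ± 1.33, 6.35 ± 0.50 and 7.26 ± 0.99 (SD). The difference from control was 1.65 ± 0.495 (SE), a 3.13-fold difference close in size to that of Cd14 but with a standard error more than double (0.229 for Cd14), and it was 1.31 without labelled double knockout replicate 1. An Itgb1 knockout array at 7.70 exceeded 5 of the 6 arrays labelled double knockout.

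Lcn2, lipocalin 2, varied within a narrow range. It read 12.87, 12.77, 12.46, 12.80 and 12.72 in the controls, 12.78, 12.71, 12.63 and 12.79 in the Itgb1 knockout tumours and 12.79, 12.73, 12.79 and 12.76 in the Itgb3 knockout tumours. The tumours labelled double knockout read from 12.84 to 13.02, with a median of 12.88. All 6 lay above all 8 single knockout arrays, and 3 of the 6 above the highest control. The share of all genes placed in this way was not counted. The difference was small, 0.17 ± 0.081 (SE) against control, or 1.13-fold. These intensities lie near the top of the deposited values, which end at 13.7, and whether the array can register a larger difference there was not tested.

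Il1b, the cytokine gene, had 1 high array in each of 2 groups. Control replicate 4 read 7.31 where the other controls read 5.30, 5.79, 5.13 and 5.11, and labelled double knockout replicate 1 read 7.30 where that group had a median of 5.32 and a lowest value of 4.51. The same replicate 1 held the highest Ltf (8.96) and Lcn2 (13.02) values of all arrays. The Itgb1 knockout tumours read 5.14, 4.88, 5.36 and 5.78 and the Itgb3 knockout tumours 5.73, 4.65, 5.02 and 4.99. The labelled double knockout mean differed from control by −0.10 ± 0.433 (SE), by −0.44 without its replicate 1 and by 0.29 without control replicate 4, so the sign turned with 1 control array. Stat3 was the steadiest gene on the log2 scale together with Lcn2. It read 10.19, 10.50, 10.35, 10.31 and 10.52 in the controls, 10.62, 10.61, 10.10 and 10.52 in the Itgb1 knockout tumours, 10.57, 10.11, 10.11 and 10.33 in the Itgb3 knockout tumours and 10.40 to 10.64 in the tumours labelled double knockout, where the median was 10.49. The difference of the last group from control was 0.13 ± 0.112 (SE), and the groups overlapped.

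The comparisons among the control and single knockout tumours use no mean of the arrays labelled double knockout, so they were tested. They are not independent of how Cd14 was chosen. Its rise was relative to these control and single knockout arrays, and the spread was estimated from all arrays in 1 fit. None of the 10 genes passed an adjusted p of 0.05 in limma in these comparisons (two-sided, Benjamini-Hochberg over the 14231 genes). At an unadjusted p under 0.05 the count was likewise 0 of 10 in each, where 4.86% of all genes reached it for the Itgb1 knockout against control, 6.14% for the Itgb3 knockout against control and 4.55% between the 2 knockouts. These comparisons called few genes of any kind, 0.00703% of all genes for the Itgb1 knockout against control and 0% in the other 2, so the counts for the 10 genes are at the background. Cd14 differed from control by 0.21 ± 0.254 (SE, limma adjusted p = 0.987) in the Itgb1 knockout tumours and by 0.40 ± 0.254 (limma adjusted p = 0.874) in the Itgb3 knockout tumours. Without control replicate 1, the lowest control, these were 0.04 and 0.22. With 1 array left out, the first ran from 0.04 to 0.36. Tlr4 differed by 0.19 ± 0.219 (limma adjusted p = 0.987) and by −0.01 ± 0.219 (limma adjusted p = 0.996), and the first was 0.06 without control replicate 2. The lowest unadjusted p among the 10 was 0.107, for Lbp in the Itgb1 knockout tumours. Between the 2 single knockouts Lbp differed by 0.46 ± 0.373 and Ltf by 0.31 ± 0.578 (limma adjusted p = 0.996 for each). The Lbp difference was 0.16 without Itgb1 knockout replicate 3, and that of Ltf ran from −0.06 without Itgb1 knockout replicate 1 to 0.87 without its replicate 3. These values do not show that the genes were alike in those groups, since standard errors reached 0.578 for Ltf.

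**Figure D2:**
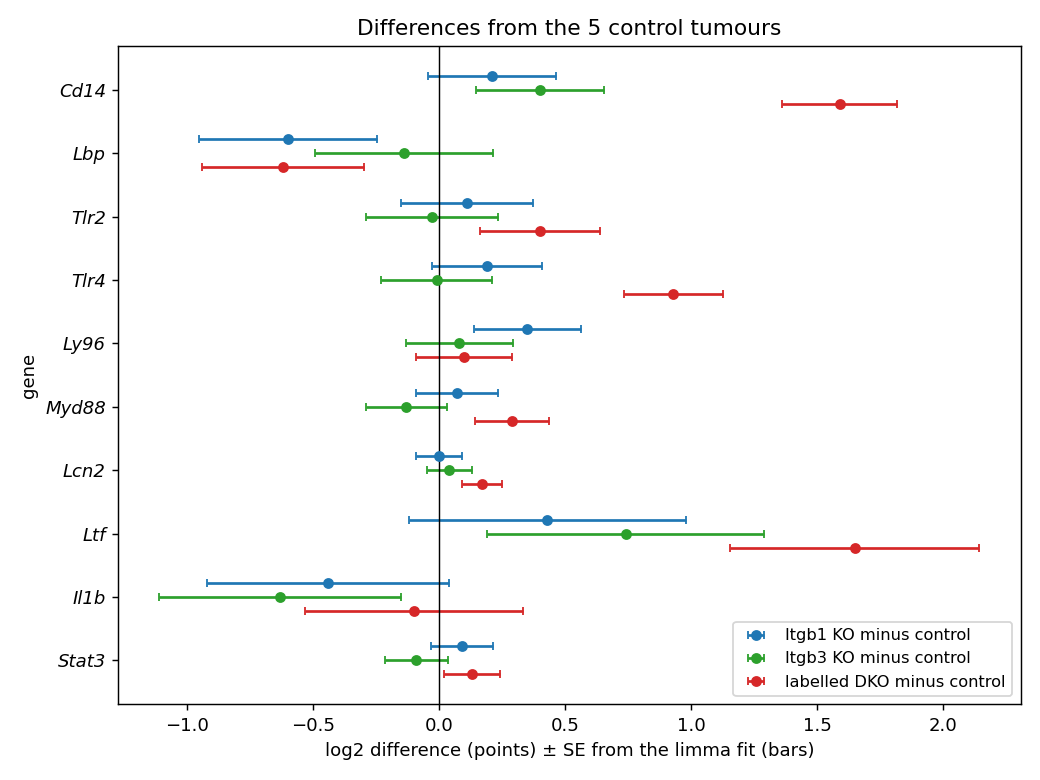
Log2 difference from the 5 control tumours (points) with its standard error from the limma fit (bars) for the 10 genes, in Itgb1 knockout, Itgb3 knockout and labelled double knockout tumours; the 3 comparisons share the controls. Cd14 at 1.59 and Tlr4 at 0.93 stand clear of their single knockout values, Ltf at 1.65 has a wide error, and Lbp lies below 0 in all 3.

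Cd14 and the Toll-like receptors are expressed by macrophages, so the macrophage markers of the same arrays are given beside them. Of 18 markers (Cd14 left out), 17 were tested, and 16 of these were higher on average in the tumours labelled double knockout than in the controls. Of all genes tested, 55.9% were higher. The median difference of the markers was 0.32, and 0 were called, beside 0.386% of all genes. The mean of the 17, relative to control, ranged from −0.30 to 0.33 in the controls, −0.07 to 0.25 in the Itgb1 knockout tumours, −0.36 to −0.09 in the Itgb3 knockout tumours and −0.35 to 0.73 in the tumours labelled double knockout. Adgre1, which encodes F4/80, averaged 7.18 in the last group and 6.55 in the controls, and Csf1r, the receptor for macrophage colony-stimulating factor, 8.31 and 7.78. Against the Itgb3 knockout tumours 2 of the 17 were called, Adgre1 and Csf1r, beside 2.87% of all genes. Both were higher, with a difference of 0.98 for each, and these calls held in 17 and 12 of the 19 fits that left out 1 array. In whole tumours a lower number of cells of a type and less RNA per cell cannot be told apart.

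The marker mean and Cd14 were high together on some arrays and parted on others. Labelled double knockout replicates 1, 2, 3 and 5 had marker means of 0.73, 0.57, 0.42 and 0.31, with Cd14 at 8.91, 9.36, 8.47 and 9.14. Control replicate 1 had the lowest marker mean of the controls, −0.30, and the lowest Cd14, 6.67. Labelled double knockout replicate 4 had a marker mean of −0.35, below every control, and read 8.99 for Cd14 and 6.33 for Tlr4, above all 13 arrays outside its group. Replicate 6 of that group had a marker mean of −0.03, with Cd14 at 8.95 and Tlr4 at 6.78. Conversely, control replicate 4 had a marker mean of 0.33 and read 7.78 for Cd14 and 5.95 for Tlr4. In the Itgb3 knockout tumours all 17 macrophage markers averaged below control, with a median difference of −0.26, while Cd14 averaged 0.40 above it. Pearson's r between the marker mean and Cd14 was 0.10 within the 13 arrays not labelled double knockout and 0.02 within the 6 that were. Over all 19 arrays, which form separate clusters for Cd14, Pearson's r was 0.46 and Spearman's rho 0.36. Neutrophil markers were mostly too dim to test, with 7 of 18 passing the filter. S100a8 reached the filter on 0 of 19 arrays and Ly6g on 1. The 7 tested had mean levels from −0.34 to 0.51 in the tumours labelled double knockout and from −0.33 to 0.23 in the controls. Fibroblast markers (14 of 14 tested) averaged 0.43 above control in the tumours labelled double knockout, from −0.58 in replicate 5 to 1.10 in replicate 2. Replicate 5, at −0.58, was below every control for these markers and read 9.14 for Cd14 and 6.61 for Tlr4. All 10 endothelial markers were tested and all averaged higher than control in the tumours labelled double knockout, with a median of 0.26 and a mean level from −0.05 to 0.63 against −0.19 to 0.36 in the controls. Of the T and NK cell markers (10 of 17 tested) 8 were higher, with a median of 0.30 and a mean level from −0.28 to 0.75 against −0.48 to 0.31. All 4 of the 10 B and plasma cell markers that were tested were higher, with a median of 0.35 and a mean level from −0.17 to 0.98 against −0.37 to 0.59. The dendritic cell and MHC class II markers (11 of 14 tested) had 7 higher, with a median of 0.10. None of the genes in these 4 lists was called against control, where 0.386% of all genes were called. Itgax, which encodes CD11c and was named after its value was seen, was called against the Itgb3 knockout tumours (difference 1.04), beside 2.87% of all genes. That call was lost without any 1 of the 4 Itgb3 knockout replicates and on leaving out some other arrays. Luminal epithelial markers (14 of 15 tested) had a median difference from control of −0.01. Of the monocyte markers (6 of 10 tested) 4 were higher than control and 2 lower, with a median of 0.07. Their mean level ran from −0.40 to 0.58 in the tumours labelled double knockout, against −0.30 to 0.36 in the controls. Of the basal and myoepithelial markers (7 of 10 tested) 6 were higher and 1 lower, with a median of 0.20. The part of these cell types in the Cd14 and Tlr4 values was not tested.

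**Figure D3:**
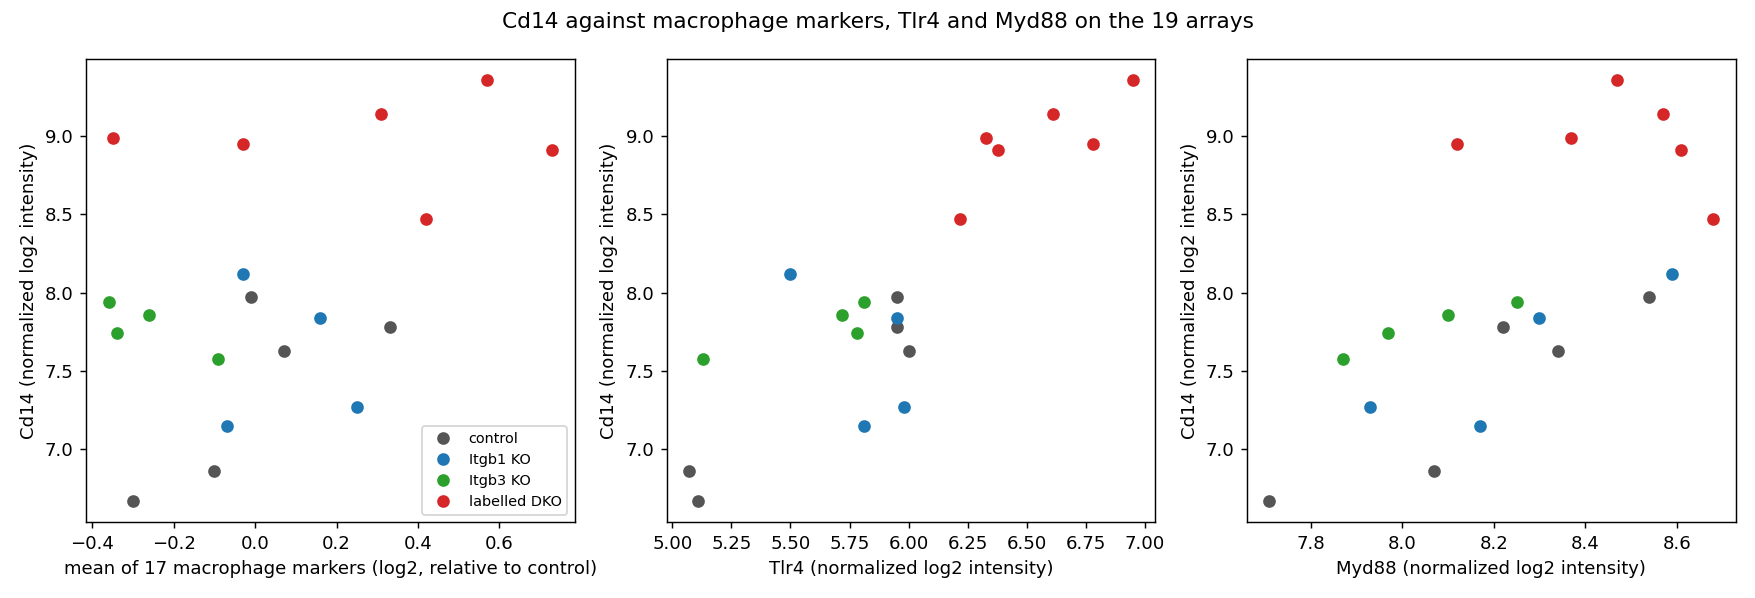
Cd14 (normalized log2 intensity, vertical axis) on each of the 19 arrays against the mean of 17 macrophage markers relative to control (left), Tlr4 (middle) and Myd88 (right), coloured by genotype. The 6 arrays labelled double knockout lie above all others for Cd14 over the whole spread of macrophage markers, from −0.35 to 0.73, and lie apart from the rest for both Cd14 and Tlr4.

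Genes with patterns most like that of Cd14 were named by Pearson's r over the genes tested. Over all 19 arrays they were Jag1, a Notch ligand (r = 0.89, rho = 0.84), Il13ra1, a subunit of the interleukin 4 and 13 receptors (0.88, 0.89), Bhlhe41, a transcriptional repressor of the circadian clock (0.87, 0.82), Tlr4 itself (0.86, 0.75) and Slc22a23, a member of a transporter family (0.85, 0.78). These values span 2 separate clusters of arrays. Within the 13 arrays not labelled double knockout r was 0.63 for Jag1, 0.74 for Il13ra1, 0.78 for Bhlhe41 and 0.44 for Slc22a23, and within the 6 labelled double knockout it was 0.49, 0.34, 0.00 and 0.45. Over those 13 arrays the genes most like Cd14 were Cibar1 (0.84), Slc9a7 (0.83), Tspan2 (0.82), Osgin2 (0.79) and Pip4p2 (0.79). Without control replicates 1 and 2, the 2 arrays farthest from the median of Cd14, these became 0.68, 0.57, 0.57, 0.47 and 0.65. Within the set, Myd88 (0.70) and Tlr2 (0.66) were the most like Cd14 over the 13 arrays, followed by Tlr4 (0.54). Over the remaining 11 these values became 0.62, 0.40 and −0.10. Lbp stood at 0.01 and Ly96 at −0.37. Over the 6 arrays labelled double knockout Myd88 stood at −0.30. All of these are descriptions over arrays that share 1 normalization.

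The rest of the pathway was described by 7 gene lists, 163 tested genes in all, which leave out the 10 genes. In the tumours labelled double knockout against control, 116 of the 163 had a positive difference, beside 55.9% of all genes tested. The median over the 163 was 0.17, against 0.03 over all genes. None of the 163 passed an adjusted p of 0.05 in limma. At an unadjusted p under 0.05 there were 38, or 23.3%, beside 16.9% of all genes tested. Against the Itgb3 knockout tumours 2 of the 163 were called, both higher, where 2.87% of all genes were called. These were Rela, the p65 subunit of NF-kappaB (difference 0.49 ± 0.127, SE), and Nfkbie, an NF-kappaB inhibitor (0.71 ± 0.167). In both, all 6 arrays labelled double knockout lay above all 4 Itgb3 knockout arrays, though the share of all genes placed in this way was not counted. The calls held in 7 and 13 of the 19 fits that left out 1 array. Against control the same genes differed by 0.15 ± 0.119 and 0.29 ± 0.157. In the Itgb1 knockout against control, the Itgb3 knockout against control and the 2 single knockouts against each other, 0 of the 163 passed. An unadjusted p under 0.05 was found for 10 (6.13%), 7 (4.29%) and 11 (6.75%), beside 4.86%, 6.14% and 4.55% of all genes. Against the Itgb1 knockout tumours, the tumours labelled double knockout had 0 of the 163 called and 24 (14.7%) at an unadjusted p under 0.05, beside 12.3% of all genes. Against the Itgb3 knockout tumours they had 52 (31.9%) at an unadjusted p under 0.05, beside 21.1% of all genes. In that comparison 119 of the 163 had a positive difference, beside 54.7% of all genes tested.

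Upstream of NF-kappaB, the Toll-like receptor pathway (34 genes tested) had 22 genes higher and 12 lower in the tumours labelled double knockout than in control, with a median of 0.09 that was 0.05 without control replicate 4. The highest were Tlr13 (0.51 ± 0.171, SE) and Tlr8 (0.43 ± 0.201), both endosomal receptors of nucleic acid. The lowest were Irf7, an interferon-inducible regulator of type I interferon (−1.71 ± 0.690), and Tlr3, the receptor for double-stranded RNA (−0.36 ± 0.140). Of the NF-kappaB subunits and regulators (19 tested), 17 were higher and 2 lower, with a median of 0.21. Bcl3, an atypical inhibitor protein that acts in the nucleus, averaged 8.19 against 7.27 (0.92 ± 0.279), and all 6 arrays lay above every control. Map3k8 followed at 0.36 ± 0.129. The share of all genes with all 6 arrays above every control was not counted, so nothing is read from that placing. Nfkbid and Cyld were lowest, at −0.22 ± 0.139 and −0.12 ± 0.130. The mean of this list ran from 0.16 to 0.24 on the arrays labelled double knockout and from −0.07 to 0.07 on the controls, but reached 0.18 in the Itgb1 knockout tumours.

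Among inflammatory cytokines and inflammasome genes (22 of 34 tested) 17 were higher and 5 lower, with a median of 0.22. Il1r1, the receptor for interleukin 1, led at 0.97 ± 0.329, followed by Ptgs2, which encodes cyclooxygenase 2, at 0.82 ± 0.230 with 5 of 6 arrays above every control. Ptgs2 averaged 5.03 there, but 4.21 in control and 4.36 and 4.24 in the Itgb1 and Itgb3 knockouts, all under the filter of 4.38. A gene needed only 4 arrays at the filter, so Ptgs2 may have been tested only because of the group where it was high. Nos2, the inducible nitric oxide synthase, was lowest at −0.46 ± 0.160, with 4 of 6 arrays below every control, and Il18 stood at −0.28 ± 0.313. Nos2 averaged 4.32 in the tumours labelled double knockout, also under the filter. Acute-phase proteins (16 of 34 tested) divided into 7 higher and 9 lower, with a median of −0.01. Serpina3n (0.78 ± 0.268) and Chil1 (0.57 ± 0.262) were highest, and complement factor B, Cfb (−0.75 ± 0.340), and Vnn1 (−0.67 ± 0.304) lowest. Vnn1 averaged 4.24 in the tumours labelled double knockout, under the filter. This list, made of genes that, like Lbp, take part in the liver's acute-phase response, was thus split around 0. Its median ran from −0.15 without control replicate 1 to 0.13 without control replicate 5, and was 0.11 with array weights.

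The STAT3 pathway and its targets (30 tested) had 20 higher and 10 lower genes, with a median of 0.09 that was 0.14 without control replicate 3. Cebpd, a C/EBP transcription factor induced during involution, differed by 0.59 ± 0.205, and Socs3, the feedback inhibitor of STAT3 signalling, by 0.48 ± 0.148, with 5 of 6 arrays above every control. Steap4 and Il22ra1 were lowest, at −0.44 ± 0.267 and −0.31 ± 0.265. Il22ra1 averaged 4.10 in the tumours labelled double knockout, under the filter of 4.38. Secreted antimicrobial proteins (15 of 33 tested) had 13 higher and 2 lower and the highest median of the 7 lists, 0.44. Pigr, which carries immunoglobulin A into milk, averaged 9.25 against 7.91 (1.33 ± 0.606), and Pglyrp1, which binds bacterial peptidoglycan, 10.94 against 10.14 (0.80 ± 0.494). Wfdc18 (−0.14 ± 0.183) and Slc22a17, a receptor for lipocalin 2 (−0.03 ± 0.129), were lowest. Mammary involution genes (27 tested) had 20 higher and 7 lower, with a median of 0.20 that was 0.09 without labelled double knockout replicate 5 and 0.31 without its replicate 4. Mfge8, which bridges dying cells to phagocytes, differed by 1.17 ± 0.477 and Timp1, a metalloproteinase inhibitor, by 1.14 ± 0.403. Arg1 (−1.20 ± 0.653) and Tnfsf10 (−0.48 ± 0.255) were lowest.

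The same 7 lists gave medians between 0.00 and 0.22 in the Itgb1 knockout tumours and between −0.07 and 0.05 in the Itgb3 knockout tumours against the same controls. The NF-kappaB list stood at 0.00 and −0.03, and the antimicrobial list at 0.22 and −0.02. The value of 0.22 was 0.01 without Itgb1 knockout replicate 1. Since the 3 comparisons share the 5 control arrays, their values are set side by side and no overlap between them is counted.

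**Figure D4:**
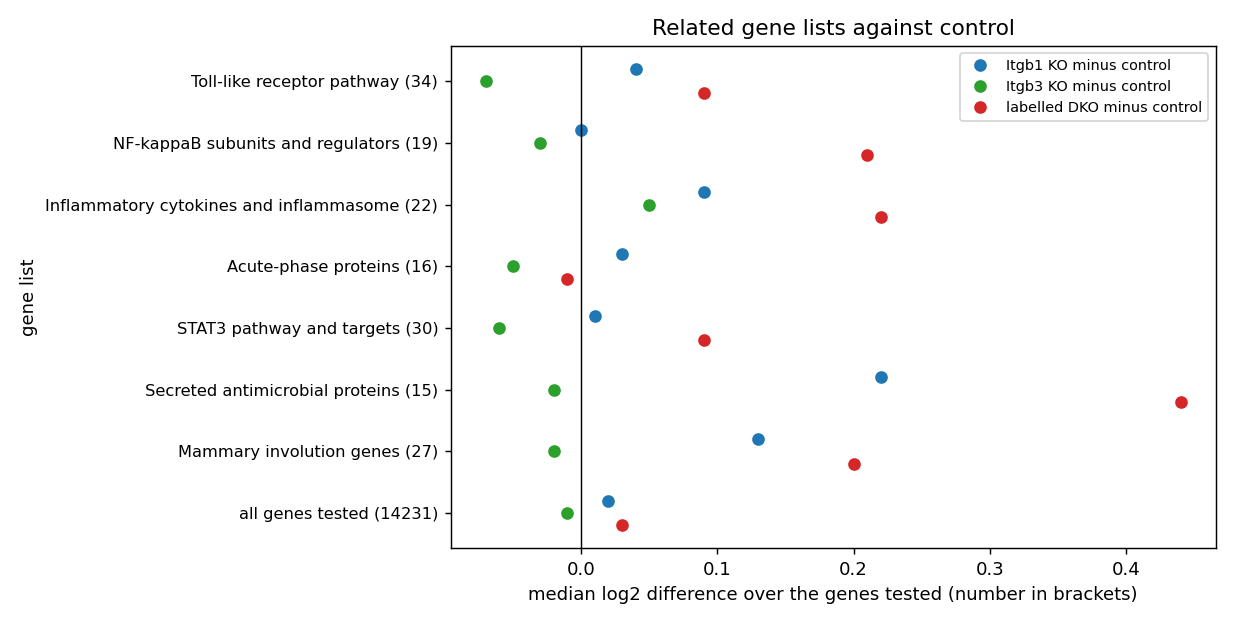
Median log2 difference from the 5 control tumours over the tested genes of each list (number tested in brackets) and over all genes tested, for Itgb1 knockout, Itgb3 knockout and labelled double knockout tumours, which share the controls. In the tumours labelled double knockout the antimicrobial list stands highest, at 0.44, and the acute-phase list lies at −0.01, beside 0.03 for all genes.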

How the data were processed

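The authors deposited 1 table of normalized log2 intensities for 41345 probe sets on 19 arrays, made with Affymetrix Expression Console per the submitters' processing notes; which version, background correction and summarization were used is not given in the sources used here, and the log2 scale was read from the values. Genes were named from the platform annotation: 23521 probe sets had 1 symbol, 1814 several and 16010 none. Symbols of the 10 genes were checked against RefSeq GRCm38.p6. Genes at or above 4.38 on at least 4 arrays were tested with limma 3.58.1 in R 4.3.3, in 1 fit with a mean per genotype (15 residual degrees of freedom, 18.7 after moderation). Benjamini-Hochberg adjustment ran over all 14231 genes, and a gene was called at an adjusted p of 0.05. Standard errors are those of the fit. The fit was tested on simulated data.

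The 10 genes, the gene lists and the motifs were chosen with earlier results of these data known. All 10 genes are named. From each list the text names every gene called in any comparison and the 2 highest and 2 lowest differences of labelled double knockout from control; likeness to Cd14 names the top 5 genes by r, leaving out predicted genes. Among statements that arrays lay above or below another group, a share of all genes was counted only for the 6 against the other 13. Replicate numbers follow the order of deposition and pair nothing. Alternatives were centring on array medians, quantile normalization, no filter, values raised to the filter, the mean over probe sets, only the groups compared, array weights, an intensity trend with robust moderation, and leaving out each array. The number of arrays limits the precision.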

Additional observations from a re-analysis of the deposited data

Results flagged for a closer look

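In 40 sets of arrays (10 genes in 4 groups), 2 held an array far from the rest of its group by Dixon's criterion at the 95% level, where chance gives about 1 in 20. Tlr4 read 5.13 in Itgb3 knockout replicate 3, and the next array of that group read 5.72, a gap of 0.88 of the group's range (n = 4). Ltf read 4.58 in control replicate 2, and the next control read 5.70, a gap of 0.75 of the range (n = 5).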

How the results depend on the processing

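The difference of Cd14 between labelled double knockout and control was 1.49 to 1.63 over 8 alternative settings and 1.41 to 1.74 over the 19 fits that left out 1 array. The number of the 10 genes called in that comparison was 1 after quantile normalization, without the intensity filter, with the mean over probe sets, with array weights and with an intensity trend and robust moderation (Cd14 in each), and 0 with only the groups compared; leaving out 1 array gave 1 to 2. Against the Itgb1 knockout it was 1 (Cd14) with array weights, beside 0.232% of all genes. With 1 array left out it was 0 to 1, beside 0% to 0.169% of all genes. Against the Itgb3 knockout it was 3 (Cd14, Tlr4 and Myd88) with array weights, beside 11% of all genes. With 1 array left out it was 0 to 2, beside 0.394% to 3.23% of all genes. It was 0 without Itgb3 knockout replicate 1, 3 or 4, beside 0.394%, 0.885% and 0.464%. Nothing is read from these counts, since Cd14 was chosen for its rise in these arrays. Among all genes, 55 were called against control, 100 with arrays centred on their medians, 31 after quantile normalization, 27 without the filter, 29 with the mean over probe sets, 31 with array weights, 26 with the intensity trend and 2 with only the groups compared (14 to 125 with 1 array left out). Against the Itgb3 knockout 408 were called, 1220 after centring, 232 after quantile normalization and 1568 with array weights (56 to 459 with 1 array left out).

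In the 3 comparisons without the labelled double knockout, 24 of 810 values changed sign, in 11 of 30 differences, none of them called. With 1 array left out, the difference from control in the Itgb1 knockout ran from −0.09 to 0.25 for Tlr2, −0.05 to 0.18 for Myd88, −0.06 to 0.04 for Lcn2 and −0.13 to 0.79 for Ltf, and in the Itgb3 knockout from −0.23 to 0.14 for Tlr2, −0.14 to 0.15 for Tlr4, −0.05 to 0.28 for Ly96 and −0.02 to 0.08 for Lcn2. Between the single knockouts it ran from −0.32 to 0.03 for Tlr2 and −0.06 to 0.87 for Ltf. Array weights gave −0.01 for Lcn2 in the Itgb1 knockout and −0.01 for Ltf between the single knockouts. Centring gave −0.02 for Lcn2 in the Itgb3 knockout and −0.03 between the single knockouts. Of 1134 values of list medians 9 moved by more than the spread. The causes were not tested. No paired analysis was possible because the labels carry no replicate numbers shared between groups.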
